A study of Homo sapiens with 4 samples.

Results

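The solute carriers are the membrane proteins that move amino acids, sugars, nucleosides, metals, vitamins and metabolites across the plasma membrane and the membranes of organelles. The genes described here were chosen by symbol (SLC, a number, A, a number), by protein-coding type and by a sum of at least 100 counts over the 4 libraries. Of 28814 gene rows, 334 had such a symbol, 285 of these were protein-coding and 185 passed the count minimum. The other 100 fell below it. Among the 185, 3 carry the symbol pattern but are not transporters: SLC7A6OS is named for lying opposite SLC7A6, SLC2A4RG for regulating a glucose transporter gene and SLC4A1AP for binding an anion exchanger. The members nearest to the count minimum were SLC16A3 and SLC9A9 with 108 counts each and SLC17A8 with 116. Just outside it were SLC28A2 with 99 counts, SLC14A1 with 94 and the mitochondrial folate carrier gene SLC25A32 with 80.

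The cells were 697, a long-established human line from a B-cell precursor leukaemia, and RNA sequencing gave 4 libraries. In 2 libraries the cells had been given 1 µM MZ1 for 24 h, and in 2 the same volume of DMSO, the solvent, for the same time. MZ1 is a degrader that brings BET bromodomain proteins to the VHL ubiquitin ligase. The libraries held 14544789 and 14246367 counts with MZ1 and 16005427 and 16488005 with DMSO.

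Levels are given as CPM, counts scaled to library size, after the TMM correction of edgeR. As the labels mention no spike-in, a level is a gene's share of the RNA counted in that library. A gene was called higher or lower with MZ1 where the Benjamini-Hochberg adjusted p of edgeR's quasi-likelihood test, over 16862 tested genes, was below 0.05. Fold changes are MZ1 over DMSO, and gene positions are those of GENCODE 29 on GRCh38. Whether the replicates came from separate cultures is not in the labels. The p-values therefore cover only the spread among these libraries, which may be technical. A permutation test of 2 libraries against 2 cannot give a p below 0.333. In such bulk samples, fewer cells expressing a gene and less RNA per cell cannot be told apart.

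All 11 B-cell precursor markers examined had reads and all were called lower with MZ1. The share called lower was 41.3% over all tested genes and 51.4% over protein-coding genes with at least 100 counts. The markers had a summed level of 1464 and 1490 CPM in the MZ1 libraries and 3286 and 3297 CPM in the DMSO libraries. A list of markers of other cells was of blood cells except for the collagen gene COL1A1. Over the 8 of 14 that had a row, these markers summed to 43.0 and 37.7 CPM with MZ1 and 30.1 and 29.4 CPM with DMSO. Of these, the myeloid marker MPO had 9.97 and 6.94 CPM with MZ1 and no read with DMSO, and the monocyte marker CD14 had 7.57 and 6.72 CPM with MZ1 and 0.428 and 0.590 CPM with DMSO. The cytotoxic lymphocyte marker NKG7 had 3.75 and 2.96 CPM with MZ1 and 16.1 and 17.6 CPM with DMSO. The T-cell marker CD8A went the other way, with 4.10 and 3.83 CPM with MZ1 and 0.672 and 0.472 CPM with DMSO. So did LYZ, with 2.62 and 2.67 CPM with MZ1 and 0.305 and 0.0590 CPM with DMSO. COL1A1, with 13.7 and 13.9 CPM with MZ1 and 12.5 and 10.6 CPM with DMSO, was not called. GATA1 and HBA1 had too few reads to be tested. Of the 6 tested, 4 were called higher and 1 lower, against 42.8% and 41.3% of all tested genes. The part of these markers in the transporter results was not tested.

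Large neutral amino acids enter dividing cells mainly through exchangers of the SLC7 family, which pair with the SLC3A2 heavy chain. Glutamine is carried by members of SLC1 and SLC38, and glucose by the SLC2 family. Nucleosides and their drug analogs cross through SLC29, and lactate and pyruvate through SLC16. Zinc mostly leaves the cytosol through SLC30 and enters it through SLC39. The SLC25 carriers join the cytosol to the mitochondrial matrix. In precursor B-cell leukaemia these proteins are of further interest because methotrexate enters cells through SLC19A1 and cytarabine through SLC29A1.

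The stretches before the transcription start of 4 members are shown because these genes fell by more than 7-fold and carry the letters CACGTG, the core of the E-box that MYC and MAX bind. MYC itself had 6.08 and 5.57 CPM with MZ1 and 495 and 522 CPM with DMSO. The sequences are from RefSeq (GRCh38.p14), on the gene's own strand and 5′ to 3′, with the E-box in capitals. Each runs from 250 bases before the RefSeq start up to that start or, where GENCODE places the gene's start earlier, up to the GENCODE start. They lie at chrX:48470261-48470510 (minus strand), chr6:44219365-44219504 (plus strand), chr16:87869508-87869757 (minus strand) and chr11:57515787-57515952 (minus strand), in that order.
SLC38A5: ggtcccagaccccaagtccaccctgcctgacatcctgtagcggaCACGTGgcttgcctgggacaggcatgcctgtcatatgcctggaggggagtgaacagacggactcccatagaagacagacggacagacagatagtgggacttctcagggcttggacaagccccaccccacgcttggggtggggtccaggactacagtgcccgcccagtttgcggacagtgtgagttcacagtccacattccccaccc
SLC29A1: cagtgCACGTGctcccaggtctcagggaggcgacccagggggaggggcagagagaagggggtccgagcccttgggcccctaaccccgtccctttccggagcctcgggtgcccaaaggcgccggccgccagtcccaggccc
SLC7A5: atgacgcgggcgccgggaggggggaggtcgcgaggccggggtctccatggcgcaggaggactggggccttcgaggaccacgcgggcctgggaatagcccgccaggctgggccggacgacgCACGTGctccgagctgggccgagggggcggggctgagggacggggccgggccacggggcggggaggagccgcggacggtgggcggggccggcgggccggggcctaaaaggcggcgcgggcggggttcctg
SLC43A1: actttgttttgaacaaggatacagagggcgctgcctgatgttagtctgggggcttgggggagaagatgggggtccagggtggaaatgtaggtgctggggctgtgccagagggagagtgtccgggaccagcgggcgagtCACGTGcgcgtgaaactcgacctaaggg

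The E-box begins 206 bases before the RefSeq start in SLC38A5, 245 in SLC29A1, 130 in SLC7A5 and 112 in SLC43A1. A RefSeq window, from 250 bases before to 50 after the start, was matched for 151 of the 185 members. In 94 of these the RefSeq start lay within 200 bases of the GENCODE gene start. CACGTG, which is its own reverse complement, was in 10 of 77 windows of members that fell (13.0%) and in 5 of 57 of members that rose (8.77%). Over all protein-coding genes with at least 100 counts the shares were 11.4% of those that fell and 9.17% of those that rose, and over all RefSeq windows 7.43%. The E-box was thus about as frequent among the solute carriers as among other genes that moved the same way. TGATGNAA on either strand, letters of the element that ATF4 binds, was in 8 of 77 windows of members that fell (10.4%) and in 0 of 57 of members that rose. The background was 2.03% of protein-coding windows that fell, 1.26% of those that rose and 3.67% of all windows. The 8 members, named here because they carry the letters, were SLC7A1, SLC1A3, SLC38A1, SLC3A2, SLC9A9, SLC39A11, SLC25A11 and SLC27A5, of which the first 4 carry amino acids or pair with a carrier of them. SLC9A9, with 19 reads with MZ1 and 89 with DMSO, passed the count minimum only through the DMSO libraries, and so had to differ. In 3 of the 8 (SLC7A1, SLC9A9 and SLC39A11) the RefSeq start lay within 200 bases of the GENCODE start. In the others, SLC1A3, SLC38A1 and SLC3A2 among them, it lay farther off. In SLC7A1 the match begins 8 bases after the start and reads TGATGAAA. ATF4 had 365 and 357 CPM with MZ1 and 459 and 469 CPM with DMSO, and was called lower by 1.29-fold. A match of letters describes the window only.

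Over all classes, the solute carriers moved about as other protein-coding genes did. Of 185 members, 67 were called higher (36.2%), 93 lower (50.3%) and 25 neither, with a median log2 fold change of −0.22. With upper-quartile scaling the split was 82 higher and 76 lower, while the share of calls that were higher went up over all tested genes too, to 58.5% in place of 50.9%. Among the 11372 protein-coding genes with at least 100 counts, 37.0% were called higher and 51.4% lower, with a median of −0.26. Over all tested genes these shares were 42.8% and 41.3%. Changes of at least 2-fold were called upward in 39 members (21.1%) and downward in 58 (31.4%), against 18.9% and 30.4% of the protein-coding genes. The 2 MZ1 and 2 DMSO libraries did not overlap in 170 members (91.9%), against 93.9% of those genes. Among the 185 members, 32 (18 higher, 14 lower) passed the count minimum only through the reads of the group where they were high, and so had to differ. Of the remaining 153 members, 49 were higher and 79 lower. Among the 32 are SLC38A5, SLC6A9, SLC7A8, SLC46A1, SLC16A14, SLC16A7, SLC16A3, SLC25A18, SLC8A1, SLC4A8, SLC6A12, SLC6A13 and SLC6A4. So are SLC13A3, SLC26A5, SLC26A4, SLC17A5, SLC44A3, SLC10A1, SLC22A16, SLC22A5, SLC27A3 and SLC9A9. Values of all these are a description only. In 10 members over 40% of the exonic length is shared with another gene, and their reads may belong to either: 7 were higher and 3 lower.

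Counts differed between substrate classes. Amino acid carriers fell in 18 of 24 members and nucleoside carriers in 4 of 4, mitochondrial SLC25 carriers in 23 of 37 and monocarboxylate carriers in 6 of 9. Ion carriers rose in 11 of 20 and fell in 4, and carriers of phosphate, sulfate and organic anions rose in 9 of 14 and fell in 5. Metal carriers divided evenly, with 10 higher, 10 lower and 1 not called. So did glucose and sugar carriers, with 5 higher, 5 lower and 5 not called. These counts stand beside the 37.0% higher and 51.4% lower of the protein-coding background, and no test of a class was made. Without the members that passed the count minimum through 1 group alone, ion carriers were 8 higher and 2 lower of 15 and those of phosphate, sulfate and organic anions 5 higher and 3 lower of 8. On the same footing amino acid carriers were 3 higher and 16 lower of 21, SLC25 carriers 7 higher and 23 lower of 35 and glucose and sugar carriers 4 higher and 5 lower of 14. The share of all counts that came from the 185 members was 0.739 and 0.732% in the MZ1 libraries, against 1.01 and 1.03% in the DMSO libraries. For the amino acid class it was 0.111 and 0.110% with MZ1, against 0.261 and 0.269% with DMSO.

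**Figure D1:**
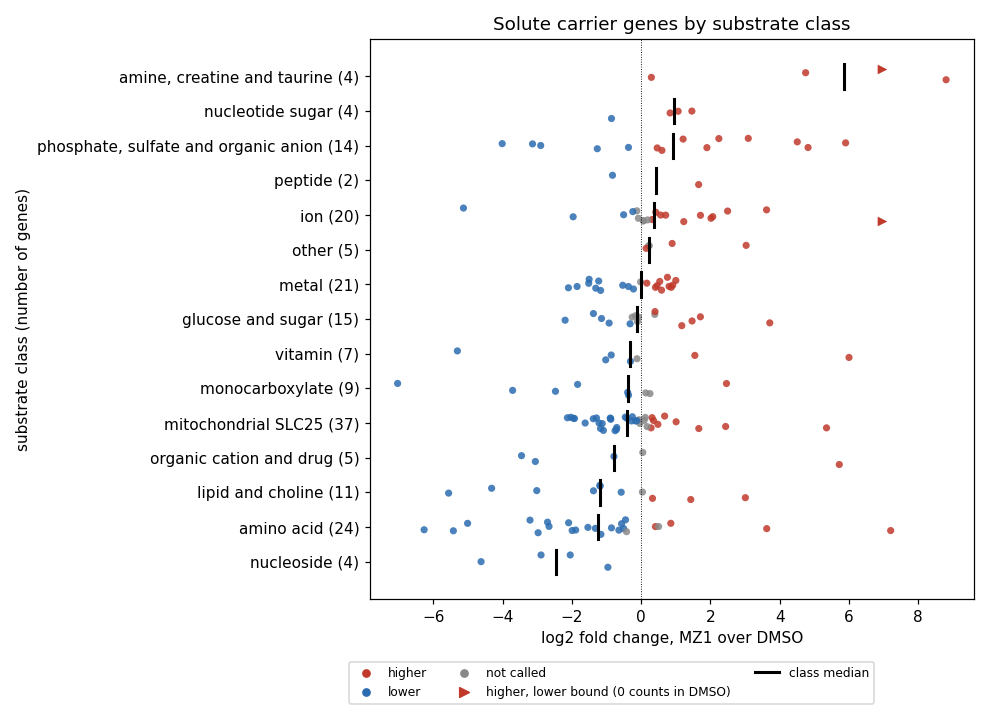
Log2 fold change (MZ1 over DMSO, x axis) of the 182 transporter genes, grouped by substrate class (y axis, number of genes in brackets); each point is a gene, coloured by its call, triangles mark lower bounds for genes with 0 counts in DMSO, and black bars are class medians with those genes at their bound. All 4 nucleoside carriers lie left of 0, the amino acid median is −1.24 and the SLC25 median −0.41, while the phosphate, sulfate and organic anion median is 0.91.

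Among amino acid carriers, the main route for large neutral amino acids fell sharply. SLC7A5 (LAT1, at chr16:87830023-87869488), which exchanges leucine and other large neutral amino acids for glutamine, had 66.9 and 68.7 CPM with MZ1, against 608 and 646 CPM with DMSO. The MZ1 libraries were far below the DMSO libraries, and each pair was tight. The log2 fold change was −3.21 ± 0.05 (SE), or 9.25-fold lower (edgeR, adjusted p = 4.75e-26). Its heavy chain partner SLC3A2, which brings it to the cell surface, had 129 and 130 CPM with MZ1 and 230 and 238 CPM with DMSO. SLC3A2 also fell, by 1.81-fold, a log2 fold change of −0.86 ± 0.05 (SE). Per kilobase of exon, SLC7A5 stood 24th of the 182 transporter genes with MZ1, at 14.3 CPM per kb, and 3rd with DMSO, at 132 CPM per kb.

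Other carriers of large neutral amino acids moved in opposite directions. SLC43A1 (LAT3), which was picked after its values were seen, had 6.58 and 6.36 CPM with MZ1 and 51.9 and 50 CPM with DMSO, and was 7.86-fold lower. SLC43A2 (LAT4), its close relative, had 58.0 and 58.5 CPM with MZ1 and 4.83 and 4.60 CPM with DMSO. It was 12.3-fold higher, the opposite of SLC43A1. SLC7A8 (LAT2), which pairs with SLC3A2 as SLC7A5 does, had 154 and 127 reads with MZ1 and 1 and 1 with DMSO, a ratio of 167 with an exact 95% counting interval of 45.9 to 1389. At 10.9 and 9.18 CPM with MZ1 it was still low. Per kilobase of exon the means with MZ1 were 14.3 CPM for SLC7A5, 5.49 for SLC43A2, 1.83 for SLC43A1 and 1.68 for SLC7A8, and with DMSO 132, 0.444, 14.4 and 0.01 CPM per kb for the same genes. SLC7A5 was thus the highest of these 4 in both groups.

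Several glutamine carriers fell. SLC38A5 (SNAT5, at chrX:48458537-48470256), which carries glutamine, asparagine and serine with sodium, had 1.06 and 1.73 CPM with MZ1 and 107 and 109 CPM with DMSO. With 15 and 24 reads in the MZ1 libraries it was close to absent there. The log2 fold change was −6.27, or 77-fold. It reached the count minimum only through the DMSO libraries. SLC1A5 (ASCT2), the neutral amino acid exchanger best known for glutamine, had 30.9 and 35.1 CPM with MZ1 and 215 and 214 CPM with DMSO. It was 6.51-fold lower (adjusted p = 6.46e-23, edgeR). Another gene overlaps 23.8% of its exons by length. The sodium-coupled SLC38A1 and SLC38A2, neighbours on chromosome 12 with 88171 bases between them, moved apart. SLC38A1 (SNAT1) had 186 and 194 CPM with MZ1 and 424 and 427 CPM with DMSO, a fall of 2.24-fold. SLC38A2 (SNAT2), a carrier that amino acid shortage is known to induce, had 293 and 287 CPM with MZ1 and 224 and 212 CPM with DMSO. It rose by 1.33-fold, and per kilobase of exon it stood 4th of all transporter genes with MZ1 and 12th with DMSO. SLC38A10, a poorly characterised member, also rose, by 1.81-fold.

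Carriers of cationic amino acids, glycine and cystine fell as well. SLC7A1 (CAT1, at chr13:29509410-29595688), the main arginine and lysine carrier, had 6.65 and 7.66 CPM with MZ1 and 223 and 239 CPM with DMSO. The groups lay far apart, and SLC7A1 went to the 148th place per kilobase with MZ1, against the 15th with DMSO. Its log2 fold change was −5.01, or 32.2-fold (adjusted p = 6.88e-26, edgeR). The other arginine carriers SLC7A2 and SLC7A3, named after their values were seen, fell by 2.90-fold and 1.37-fold. SLC6A9 (GLYT1), a glycine carrier, had 0.707 and 0.434 CPM with MZ1 and 23.8 and 26.0 CPM with DMSO, a 42.9-fold difference that rests on 10 and 6 reads in the MZ1 libraries. SLC7A11 (xCT), which takes in cystine in exchange for glutamate, had 2.55 and 2.60 CPM with MZ1 and 10.1 and 10.4 CPM with DMSO and was 3.98-fold lower. Of the remaining amino acid carriers, 7 fell by between 1.42-fold and 6.32-fold and SLC66A1 and SLC7A7, of the lysosome and of the cell surface, were not called.

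**Figure D2:**
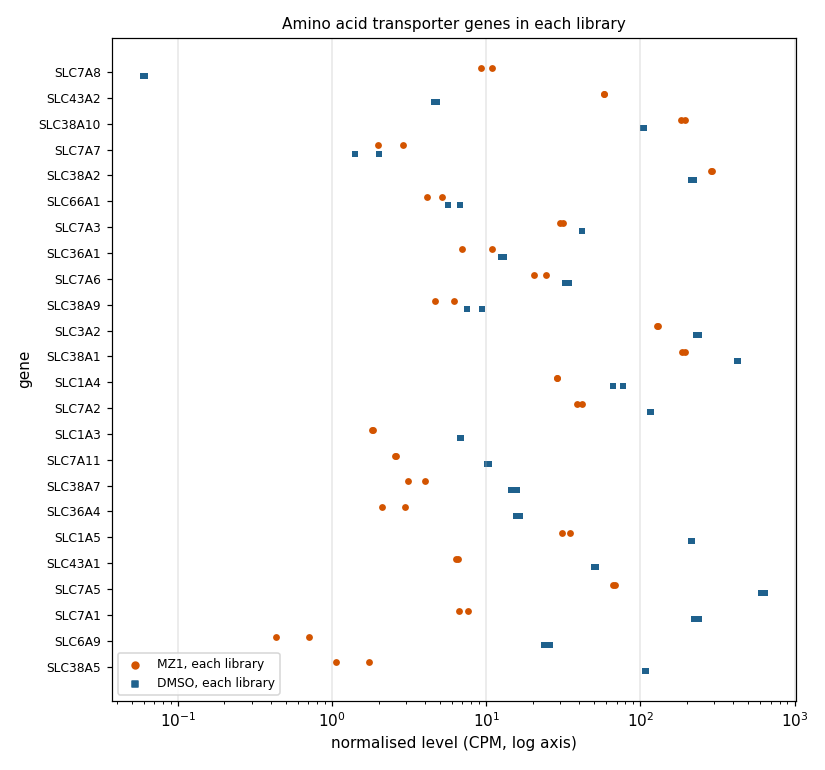
Normalised level (CPM, log axis) of the 24 amino acid carrier genes (y axis, ordered by fold change) in each library, with MZ1 libraries as circles and DMSO libraries as squares. SLC38A5, SLC6A9 and SLC7A1 show the widest gaps to the left, and SLC7A8 and SLC43A2 lie to the right with MZ1.

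All 4 nucleoside and nucleobase carriers above the count minimum were lower with MZ1. SLC29A1 (ENT1, at chr6:44219505-44234151), the equilibrative carrier of nucleosides and of drugs such as cytarabine, had 3.75 and 5.28 CPM with MZ1 and 113 and 109 CPM with DMSO. The MZ1 libraries were more than an order of magnitude below. The log2 fold change was −4.62, or 24.6-fold (adjusted p = 4.79e-23, edgeR). In place per kilobase SLC29A1 was 145th with MZ1 and 21st with DMSO. SLC29A2 (ENT2) had 9.83 and 7.30 CPM with MZ1 and 34.7 and 36.2 CPM with DMSO, a fall of 4.13-fold. SLC43A3, a purine nucleobase carrier, had 4.74 and 4.55 CPM with MZ1 and 31.4 and 37.6 CPM with DMSO and fell by 7.42-fold. SLC29A3, an equilibrative carrier of intracellular membranes, fell by 1.95-fold. SLC43A3 and SLC43A1 are neighbours, 56953 bases apart on chromosome 11, and both fell. Nucleoside carriers of the SLC28 family, below the count minimum and picked after their values were seen, went the other way. SLC28A2, with 41 and 55 reads with MZ1 and 2 and 1 with DMSO, was called higher. So was SLC28A1, with 12 and 15 reads with MZ1 and 0 and 0 with DMSO. SLC28A3, with 9 and 6 reads with MZ1 and 0 and 0 with DMSO, was not tested.

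In the vitamin carriers, that of folates stood out. SLC19A1 (the reduced folate carrier, at chr21:45493572-45544411), through which methotrexate enters, had 1.98 and 2.39 CPM with MZ1 and 86.0 and 87.3 CPM with DMSO. Both MZ1 libraries held few reads, 28 and 33, against 1407 and 1479 with DMSO. The log2 fold change was −5.31, or 39.6-fold (adjusted p = 5.13e-23, edgeR). SLC46A1, the proton-coupled folate carrier, had 4.88 and 3.83 CPM with MZ1 and 0 and 0.118 CPM with DMSO, a ratio of 72.7 with a counting interval of 19.7 to 607. However, 61.5% of its exonic length is shared with SARM1, so its reads may come from that gene. SLC5A6, which carries biotin and pantothenate, fell by 2.03-fold, and SLC52A2, a riboflavin carrier, by 1.82-fold. SLC23A1, a vitamin C carrier, had 26.5 and 24.3 CPM with MZ1 and 8.43 and 8.91 CPM with DMSO, a rise of 2.93-fold.

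Glucose carriers moved singly rather than together. SLC2A1 (GLUT1), the widespread basal glucose carrier, had 45.6 and 46.0 CPM with MZ1 and 50.7 and 46.0 CPM with DMSO. The groups met, and the difference was not called (log2 fold change −0.08 ± 0.07, SE). With upper-quartile scaling, which moves the median of all genes by 0.27 on the log2 scale, SLC2A1 was called higher instead, and the class had 7 higher and 4 lower in place of 5 and 5. SLC2A3 (GLUT3), a carrier of high glucose affinity, had 58.1 and 57.5 CPM with MZ1 and 17.2 and 18.2 CPM with DMSO. It rose by 3.27-fold (adjusted p = 7.65e-16, edgeR), and reads of its near-identical copy SLC2A14 may be mixed with it. Per kilobase of exon, SLC2A3 stood at 9.39 CPM beside 9.69 CPM for SLC2A1 with MZ1, against 2.87 and 10.2 CPM per kb with DMSO. SLC2A11 and the inositol carrier SLC5A3 rose too, by 2.77-fold and 2.25-fold. SLC2A6 had 5.80 and 6.29 CPM with MZ1 and 24.9 and 30.5 CPM with DMSO, the deepest fall of the class at 4.58-fold. SLC37A4, the glucose 6-phosphate carrier of the endoplasmic reticulum, fell by 2.21-fold and SLC50A1 by 1.90-fold.

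Among the monocarboxylate carriers, the abundant lactate carrier fell modestly. SLC16A1 (MCT1), which moves lactate and pyruvate with a proton, had 171 and 168 CPM with MZ1 and 225 and 219 CPM with DMSO. Its fall was small beside the others, 1.31-fold (adjusted p = 1.82e-08, edgeR). SLC16A7 (MCT2), of higher affinity, had 1.41 and 2.02 CPM with MZ1 and 22.8 and 22.3 CPM with DMSO and fell by 13.1-fold. SLC16A14, an orphan member, had 0.0707 and 0.289 CPM with MZ1 and 23.6 and 25.3 CPM with DMSO. Only 1 and 4 reads were left in the MZ1 libraries, and the fitted fold change of 131 is loose. SLC16A3 (MCT4), a lactate exporter, had 3.32 and 3.04 CPM with MZ1 and 0.550 and 0.590 CPM with DMSO and rose by 5.51-fold, near the count minimum. In this class 5 of 9 members rest on the reads of 1 group, and without them 0 were higher and 2 lower.

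**Figure D3:**
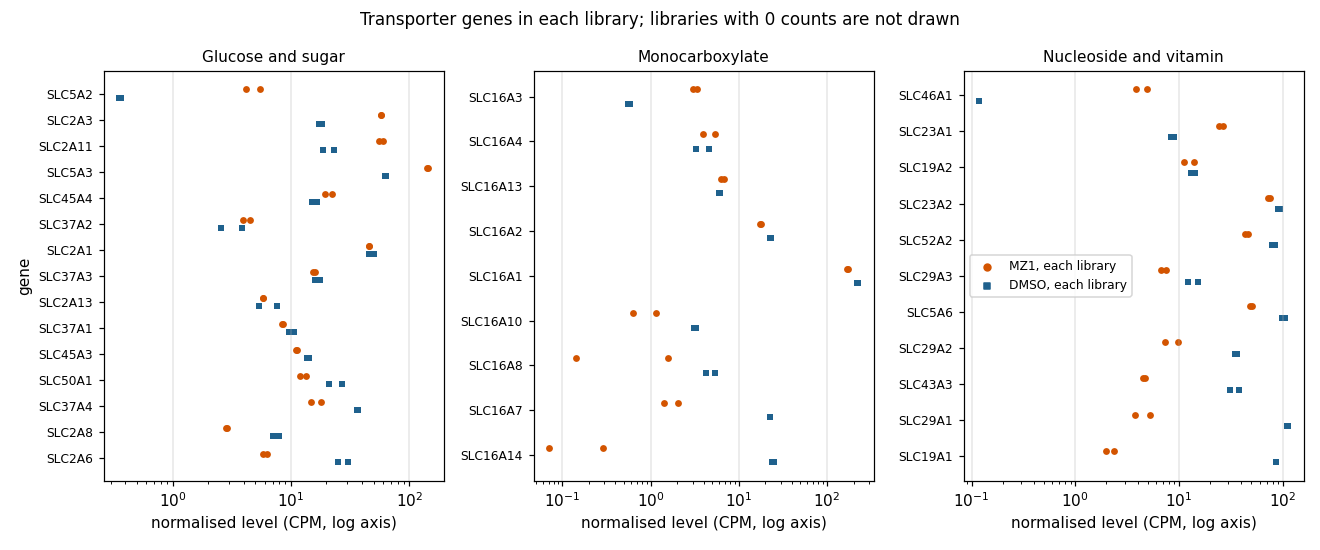
Normalised level (CPM, log axis) of glucose and sugar, monocarboxylate, and nucleoside and vitamin carrier genes in each library, with MZ1 as circles and DMSO as squares; genes (y axis) are ordered by fold change, and libraries with 0 counts are not drawn. SLC2A1 libraries meet and SLC2A3 lies higher with MZ1, while SLC29A1 and SLC19A1 lie far to the left with MZ1.

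Most SLC30 zinc carriers rose and most SLC39 zinc carriers fell, and no test of the families was made. SLC30 carriers mostly move zinc out of the cytosol. All 5 above the count minimum were higher, against 37.0% of protein-coding genes with at least 100 counts. Their median log2 fold change was 0.59. Below the minimum, SLC30A4 was called higher, and SLC30A3 and SLC30A8 were not tested. SLC30A1, the plasma membrane exporter and a known target of the zinc sensor MTF1, had 67.6 and 66.2 CPM with MZ1 and 30.5 and 36.3 CPM with DMSO. Both MZ1 libraries were above both DMSO libraries, by 2-fold (log2 1.00 ± 0.08, SE, adjusted p = 8.12e-12, edgeR). The other 4, SLC30A7, SLC30A6, SLC30A5 and SLC30A9, rose by 1.75-fold, 1.5-fold, 1.45-fold and 1.37-fold. Of 11 SLC39 members, which bring zinc into the cytosol, 8 were lower, against 51.4% of those genes, and 3 higher, with a median of −0.53. SLC39A8 (ZIP8), which also carries manganese, had 21.4 and 22.7 CPM with MZ1 and 98.8 and 90.2 CPM with DMSO and fell by 4.29-fold. SLC39A6 (ZIP6) had 41.4 and 40.2 CPM with MZ1 and 88.5 and 95.1 CPM with DMSO and fell by 2.25-fold.

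The exceptions in the SLC39 family were SLC39A9, SLC39A1 and SLC39A10. SLC39A9, a Golgi member, had 131 and 120 CPM with MZ1 and 69.8 and 67.5 CPM with DMSO, a rise of 1.82-fold. In SLC39A1 69.1% of the exonic length is shared with another gene. SLC39A10 rose by only 1.12-fold, a call that did not hold when DMSO replicate 1 (adjusted p = 0.0607, edgeR) or DMSO replicate 2 (adjusted p = 0.284, edgeR) was left out. MTF1 was 1.37-fold higher. With upper-quartile scaling SLC39A14 and SLC39A7, which fell by 1.29-fold and 1.17-fold, lost their calls and SLC39A7 changed sign. Under the scalings tried no other SLC30 or SLC39 member changed direction.

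**Figure D4:**
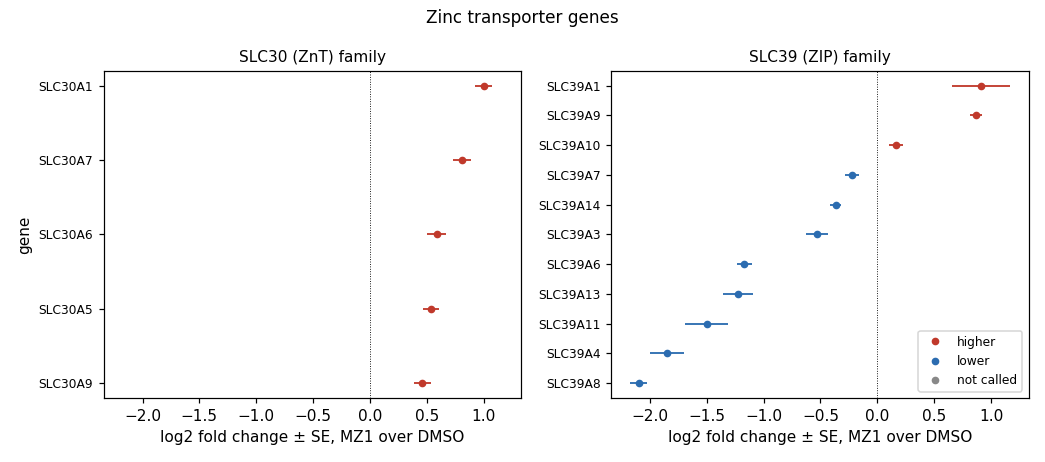
Log2 fold change with its standard error (x axis, MZ1 over DMSO) of the 5 SLC30 and 11 SLC39 genes (y axis), coloured by call. The SLC30 genes all lie right of 0, between 0.46 and 1.00, and 8 of the 11 SLC39 genes lie left of it, down to −2.10.

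Iron and other metal carriers were mixed. SLC11A2 (DMT1), which takes in iron released from transferrin, had 17.5 and 16.1 CPM with MZ1 and 41.9 and 41.7 CPM with DMSO. It fell by 2.48-fold (adjusted p = 1.83e-12, edgeR), as did the gene of the transferrin receptor, TFRC, by 3.18-fold. SLC25A37 (mitoferrin 1), which brings iron into mitochondria, had 29.8 and 29.3 CPM with MZ1 and 110 and 115 CPM with DMSO. It was 3.80-fold lower (log2 −1.93 ± 0.06, SE, adjusted p = 2.53e-19, edgeR). Its paralog SLC25A28 (mitoferrin 2), named after its values were seen, had 28.8 and 28.8 CPM with MZ1 and 23.6 and 27.5 CPM with DMSO and was not called. The iron exporter gene SLC40A1 was not analysed here. SLC31A1, the copper carrier, was not called, and the magnesium carrier genes SLC41A1 and SLC41A3 moved apart, 1.33-fold higher and 2.86-fold lower. These last 3 were also picked after their values were seen.

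The mitochondrial carriers leaned towards lower levels, and the most abundant changed little. SLC25A6 and SLC25A5, the ADP/ATP carriers, stood at the first 2 places per kilobase in both groups. SLC25A6 had 596 and 610 CPM with MZ1 and 648 and 666 CPM with DMSO, and SLC25A5 had 384 and 399 CPM with MZ1 and 477 and 456 CPM with DMSO. Both were called lower, by 1.09-fold and 1.19-fold. With upper-quartile scaling both turned upward, to log2 0.15 for SLC25A6 (adjusted p = 0.00112, edgeR) and 0.02 for SLC25A5 (adjusted p = 0.712, edgeR), so no direction is given for them. Processed copies of these genes may share reads with them. With that scaling the whole class had 14 higher and 16 lower, in place of 9 and 23.

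Falls of at least 2-fold were called in 11 of 37 SLC25 members (29.7%), about the share of protein-coding genes with at least 100 counts (30.4%). Besides SLC25A37, SLC25A23, a calcium-regulated carrier of ATP-magnesium and phosphate, had 9.48 and 10.8 CPM with MZ1 and 43.4 and 45.3 CPM with DMSO and fell by 4.38-fold. SLC25A39, which brings glutathione into mitochondria, had 74.3 and 69.7 CPM with MZ1 and 156 and 168 CPM with DMSO and fell by 2.25-fold. In both the groups stood clearly apart. Carriers of tricarboxylic and urea cycle intermediates, named after their values were seen, included SLC25A15 for ornithine, 3.88-fold lower, SLC25A1 for citrate, 2.45-fold lower, and SLC25A11 for oxoglutarate and malate, 2.32-fold lower. The deposited table gives SLC25A32 17 and 29 reads with MZ1 and 17 and 17 with DMSO, too few for membership, and it was not called. MPC1 and MPC2, the mitochondrial pyruvate carrier genes outside the SLC25 family, fell by 2.16-fold and 2.26-fold.

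The rises in the SLC25 family were fewer. SLC25A18, the second mitochondrial glutamate carrier, had 26.7 and 22.9 CPM with MZ1 and 0.550 and 0.649 CPM with DMSO. It was 40.8-fold higher (log2 5.35), but it reached the count minimum only through the MZ1 libraries. The first glutamate carrier, SLC25A22, named after its values were seen, had 41.6 and 37.6 CPM with MZ1 and 61.5 and 68.4 CPM with DMSO and fell by 1.64-fold. SLC25A14, an uncoupling-protein relative, rose by 3.17-fold and SLC25A44, a carrier of branched-chain amino acids, by 2.01-fold.

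**Figure D5:**
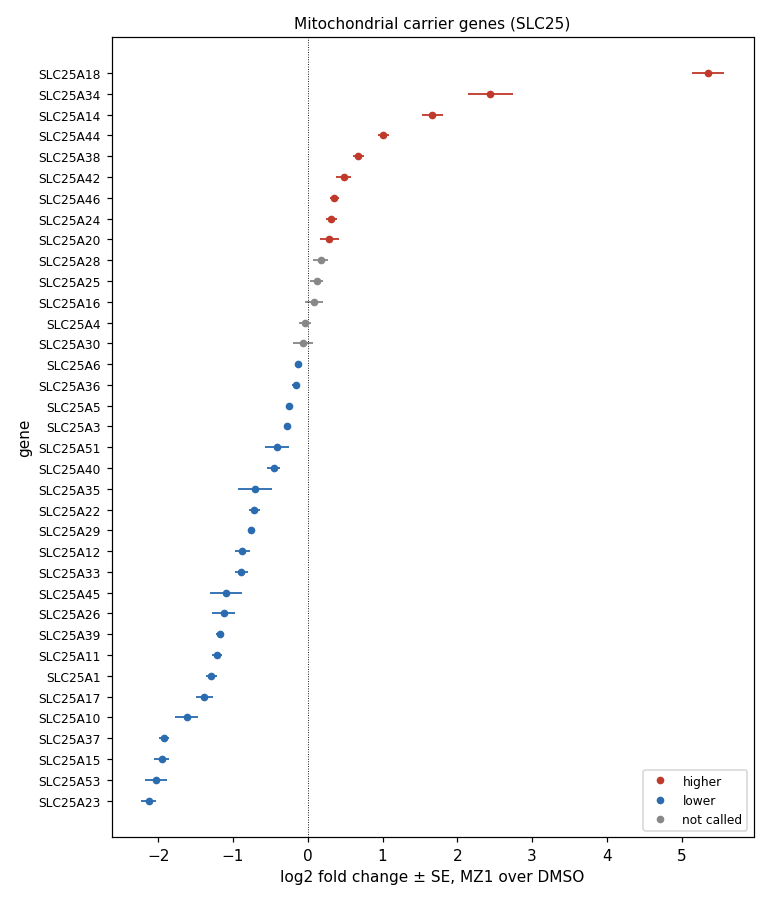
Log2 fold change with its standard error (x axis, MZ1 over DMSO) of SLC25 genes (y axis, ordered), coloured by call. SLC25A18 stands alone at 5.35, most genes lie between −2.13 and 0, and SLC25A6 and SLC25A5 lie close to 0. The error bar of SLC25A18 is narrower than its 20 DMSO reads allow.

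Among the ion carriers, the cation and chloride cotransporters mostly rose. Of 6 SLC12 members, 5 were higher and 0 lower, against 37.0% higher and 51.4% lower of protein-coding genes with at least 100 counts. SLC9A3, a sodium and proton exchanger, rose by 4.04-fold but shares 56.7% of its exonic length with another gene. SLC4A7, a sodium bicarbonate carrier, fell by 1.42-fold. SLC8A1 (NCX1), the sodium and calcium exchanger, had 0.637 and 1.01 CPM with MZ1 and 29.7 and 28.5 CPM with DMSO, a fall of 35-fold. SLC4A8, a bicarbonate exchanger, had 12.4 and 9.90 CPM with MZ1 and no read in either DMSO library. Against a floor of 3 counts over the DMSO group this is at least 124-fold higher.

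A neighbouring pair of the SLC6 family appeared with MZ1. SLC6A12 (BGT1, at chr12:190077-214570), a betaine and GABA carrier, had 156 and 155 reads with MZ1 and 0 and 0 with DMSO, at least 123-fold higher. SLC6A13 (GAT2, at chr12:220621-262873), another GABA carrier, had 453 and 399 reads with MZ1 and 0 and 2 with DMSO, a ratio of 507 with a counting interval of 140 to 4197. The genes lie on the same strand with 6050 bases between them, and whether reads run on from one into the other was not tested. SLC6A4, the serotonin carrier, was 26.9-fold higher with 13.4 and 9.61 CPM with MZ1 and 0.305 and 0.531 CPM with DMSO. SLC6A6, the taurine carrier, had 113 and 98.9 CPM with MZ1 and 83.4 and 89.0 CPM with DMSO and rose by 1.23-fold, a call lost with no count filter (log2 0.22, adjusted p = 0.0701, edgeR).

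Among carriers of phosphate, sulfate and organic anions, 7 of 14 members rose and 4 fell by at least 2-fold. The shares of protein-coding genes with at least 100 counts were 18.9% and 30.4%. Of the 14, 6 passed the count minimum only through 1 group. SLC17A9, the vesicular nucleotide carrier, had 24.7 and 23.8 CPM with MZ1 and 173 and 190 CPM with DMSO and fell by 7.47-fold. SLC20A1, a phosphate importer, had 50.9 and 45.5 CPM with MZ1 and 116 and 116 CPM with DMSO and fell by 2.41-fold. In both the MZ1 libraries lay clearly lower. SLC13A3, a dicarboxylate carrier, had 17.8 and 16.6 CPM with MZ1 and 0.489 and 0.708 CPM with DMSO, a rise of 28.2-fold, and SLC26A5 and SLC26A4, anion carriers known from the inner ear, rose by 22.7-fold and 8.53-fold from few reads. SLC17A5, the lysosomal sialic acid exporter, fell by 8.79-fold.

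In lipid and choline carriers, 4 of 5 members of the fatty acid family SLC27 fell, against 51.4% of protein-coding genes with at least 100 counts. Among the 4 is SLC27A3, with 9 reads with MZ1 and 219 with DMSO. It passed the count minimum only through the DMSO libraries, and so had to differ. SLC27A2 had 4.95 and 4.26 CPM with MZ1 and 38.2 and 36.4 CPM with DMSO, 8.08-fold lower, and SLC27A4 was 2.60-fold lower. SLC27A1 was higher by 0.33 on the log2 scale, a call lost without MZ1 replicate 1 (adjusted p = 0.0578, edgeR) and without DMSO replicate 1 (adjusted p = 0.213, edgeR). The choline carrier SLC44A1 had 145 and 152 CPM with MZ1 and 55.2 and 54.8 CPM with DMSO and rose by 2.70-fold. SLC44A3, of the same family, fell by 47.1-fold with 2 and 3 reads left in the MZ1 libraries. The bile acid carrier SLC10A1 rose by 8.05-fold from few reads.

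Of 4 nucleotide sugar carriers of the Golgi family SLC35A, 3 rose, against 37.0% of protein-coding genes with at least 100 counts. SLC35A2, for UDP-galactose, had 50.7 and 49.5 CPM with MZ1 and 18.4 and 17.9 CPM with DMSO, a rise of 2.76-fold, and SLC35A5 rose by 2.10-fold. SLC35A3, for UDP-N-acetylglucosamine, fell by 1.81-fold. SLC35A1, for CMP-sialic acid, was called higher at 1.79-fold but shares 55.5% of its exonic length with another gene, and lost the call without MZ1 replicate 2 (adjusted p = 0.0882, edgeR) and without DMSO replicate 1 (adjusted p = 0.318, edgeR). Of the peptide carriers, SLC15A2 rose by 3.16-fold and the lysosomal SLC15A4 fell by 1.78-fold. Among organic cation carriers, SLC22A16 and the carnitine carrier SLC22A5 fell by 11-fold and 8.31-fold, SLC22A23 fell by 1.72-fold and SLC22A18 was not called. SLC46A3, a lysosomal carrier, had 20.7 and 18.7 CPM with MZ1 and 2.87 and 1.95 CPM with DMSO and rose by 8.17-fold. SLC66A3 rose by 1.86-fold and SLC66A2 by 1.10-fold. SLC66A2 lost its call when any 1 of the 4 libraries was left out, with adjusted p between 0.0553 and 0.291 (edgeR). SLC33A1 and SLC49A4 were not called. The 3 members that are not transporters gave a rise for SLC7A6OS of 2.44-fold, where SLC7A6 overlaps 64.5% of the exonic length, and falls of 4.37-fold for SLC2A4RG and 1.76-fold for SLC4A1AP.

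Genes that partner or regulate the carriers, a list of 20 tested genes, gave 8 higher (40%) and 11 lower (55%). These shares were 42.8% and 41.3% over all tested genes, and 37.0% and 51.4% over protein-coding genes with at least 100 counts. TXNIP, an arrestin that draws glucose carriers from the surface, had 151 and 161 CPM with MZ1 and 14.0 and 13.1 CPM with DMSO and rose by 11.5-fold. MLXIP (MondoA), which drives TXNIP, rose by 7.66-fold, and ARRDC4 by 2.61-fold. BSG, the chaperone of SLC16A1, rose by 1.38-fold, whereas EMB, the partner of SLC16A7, had 13.6 and 15.0 CPM with MZ1 and 74.5 and 74.0 CPM with DMSO and fell by 5.21-fold. Carriers of the solute carrier type under other symbols gave 12 higher (30.8%) and 21 lower (53.8%) of 39 tested. The shares of protein-coding genes with at least 100 counts were 37.0% and 51.4%. The deepest falls among these carriers, picked after their values were seen, were SPNS3 at 18.9-fold, SLCO5A1 at 12.6-fold and UNC93B1 at 11-fold. The MZ1 libraries held only 3 and 11 reads of SPNS3, 27 and 21 of SLCO5A1 and 76 and 92 of UNC93B1. NPC1, the lysosomal cholesterol exporter, also picked after its values were seen, rose by 2.94-fold.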

How the data were processed

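RNA-seq counts from 4 libraries of 697 cells, 2 with MZ1 and 2 with DMSO, were used. Per the file headers, the deposited table holds raw counts of reads for each gene, all whole numbers. Per the submitters' processing notes, HISAT2 2.2.0 and hg38 were used, and TRIzol extraction and the Illumina TruSeq RNA kit per the labels' protocols. How reads were counted (program, annotation, strand) is not given in the sources used here. Reads of overlapping or antisense genes therefore cannot be told apart.

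Groups were taken from the sample titles. All 28814 gene IDs matched GENCODE 29 (GRCh38), the source of positions, gene types, exonic lengths and shared exonic length, and 28597 matched a symbol in a table of gene names. In R 4.3.3, edgeR 4.0.16 filtered genes by filterByExpr by group (16862 kept), scaled libraries by TMM and fitted the quasi-likelihood model with treatment as the only term to the 4 libraries. P-values were adjusted over all tested genes (Benjamini-Hochberg), two-sided, and called below 0.05. Standard errors are the unshrunk coefficient over the root of F and are not given for genes with 3 or fewer reads in a group. For such genes a fold is a bound against 3 counts over the group, or a ratio of counts with an exact 95% interval, both for counting error only. Fit and calls were tested on simulated counts.

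Replicate counts differed by more than sampling noise (chi-square per degree of freedom 2.17 for MZ1 and 2.44 for DMSO), with a biological coefficient of variation of 3.79%, and the first principal component held 96.3% of the variance.

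The members and lists were chosen with earlier results of these data known. Genes named were 23 of standing interest, in each substrate class the 3 called members of lowest adjusted p among rises and among falls (all in classes of 6 or fewer), and the 8 largest rises and falls with non-overlapping groups above a mean log2 CPM of 3. Others are said to be picked after their values were seen, and the members of a whole list or family were named together. Promoter letters came from RefSeq (GRCh38.p14). Alternatives were the scaling, the count filter, DESeq2 1.42.0, limma-voom (limma 3.58.1), the replicate block, each library in turn, and, added after the data were seen, leaving out 3 kinds of member. A comparison of protein sequences between members was not run. Some members are not reported here by name.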

Additional observations from a re-analysis of the deposited data

How the results depend on the processing

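Over single named genes, 1053 values kept their direction and side of the threshold, 19 lost the call, 1 gained it and 7 changed sign. With upper-quartile scaling, which raised the median of all genes by 0.27 on the log2 scale, the members' median log2 fold change was 0.049 in place of −0.22. Calls were then 82 higher and 76 lower (51.9% of calls higher, against 41.9%, beside 58.5% against 50.9% over all tested genes), glucose and sugar carriers 7 and 4 (63.6% higher, against 50%), and SLC25 carriers 14 and 16 (46.7% higher, against 28.1%). SLC25A5 turned to 0.0167, SLC25A6 to 0.15 and SLC2A1 to 0.19. Of the 160 calls, 143 were kept, 16 lost and 1 reversed. The members' median was −0.30 with library totals alone and −0.30 with no count filter, and ranged from −0.31 to −0.18 when 1 library was left out. Leaving out 1 library gave 62 to 65 members higher and 89 to 94 lower. SLC22A18, not called, turned to −0.0297 with library totals and −0.0297 with no filter, and ranged from −0.26 to 0.33 when 1 library was left out. Without members that rest on 1 group, monocarboxylate carriers were 0 higher and 2 lower. The cause of these shifts was not tested.

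DESeq2 kept 146 of the 160 calls and limma-voom 159. With the replicate block, 66 members were higher and 92 lower, and the calls of SLC10A7 and SLC25A20 were lost. Same-numbered libraries deviated with a correlation of 0.01, and the labels tie the numbers to nothing. A single correlation across genes cannot show whether same-numbered libraries shared a culture or batch. Protein identity between close relatives was planned and not run. No outlier check applies to groups of 2 libraries.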
